A study of Mus musculus with 34 samples.

Results

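Nodal, its inhibitors Lefty1 and Lefty2, its co-receptor Tdgf1 (Cripto), the receptors Acvr1b and Acvr2b, and the signal transducers Smad2, Smad3, Smad4 and Smad7 were examined in RNA-seq of mouse embryonic stem cells (mESCs). These 10 genes were chosen by name as the core of the pathway, and all 10 were among the 23366 rows of the deposited expression table. The cells were of the J1 line, which depends on leukemia inhibitory factor (LIF) for self-renewal in serum, and were grown on gelatin. The serum/-LIF group (2 libraries) had serum medium with LIF withdrawn, and the serum/-LIF + Royalactin group (2 libraries) had the same medium with 0.5 mg/ml of Royalactin, the major protein of honey bee royal jelly. The sample labels give passage 40 for every library, whereas a figure legend of the study gives passage 10 for RNA-seq of J1 cells in these conditions. All libraries come from 1 cell line, so p-values measure only the spread between libraries of that line. Whether the replicates were separate cultures is not stated in the sources used here. ATAC-seq and serum/+LIF samples were not analysed here.

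Nodal is a secreted ligand of the TGF-beta family. It binds a pair of activin receptors, the type II receptor Acvr2b and the type I receptor Acvr1b, together with the membrane-anchored co-receptor Tdgf1. The activated type I receptor phosphorylates SMAD2 and SMAD3, which join SMAD4 and enter the nucleus, where FOXH1 is a main partner on DNA. Lefty1, Lefty2, Smad7 and Nodal itself are known targets of the pathway. The Lefty proteins block Nodal outside the cell, and SMAD7 blocks the receptor inside it. In the embryo the pathway patterns the epiblast, induces mesendoderm and sets the left-right axis, and the ligand, the inhibitors and the co-receptor are all known to be made by mESCs.

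Lefty1 and Lefty2 are neighbours on chromosome 1 (mm9, chr1:182865153-182868531 and chr1:182823239-182829234, both on the plus strand) and have similar coding sequences, which bears on whether reads can be told apart. Over 1104 aligned coding bases they were 91.8% identical, with 90 differences, of which 56 fell in the first coding exon. Of the 808 windows of 75 bases (the read length) within a coding exon, 168 were identical between the genes. The windows below are the first with the most differences (23), in coding exon 1, with the differing bases in capitals (mm9, chr1:182865291-182865365 for Lefty1 and chr1:182823365-182823439 for Lefty2).
Lefty1: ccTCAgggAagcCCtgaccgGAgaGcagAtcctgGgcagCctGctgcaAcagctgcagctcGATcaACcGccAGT
Lefty2: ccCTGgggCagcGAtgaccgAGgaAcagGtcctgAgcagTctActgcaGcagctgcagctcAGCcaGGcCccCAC
The next window is the first that the genes share base for base, in coding exon 2 (chr1:182866699-182866773 in Lefty1 and chr1:182824287-182824361 in Lefty2), so a read from it could belong to either gene.
Lefty1 and Lefty2: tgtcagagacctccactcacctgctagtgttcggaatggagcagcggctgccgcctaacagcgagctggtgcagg

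Over all exons, 29.7% of the 75-base tiles of Lefty1 and 26.0% of those of Lefty2 also occurred elsewhere in the assembled genome with up to 2 mismatches, and for Lefty1 every such match lay in Lefty2. Tdgf1 (chr9:110842114-110848662, minus strand) has a near-copy on chromosome 16, where no gene is annotated, and 33.7% of its tiles matched elsewhere. Its 513 coding bases differ from that copy at 7 positions. The windows below are the first in coding order with 2 differences, which is as many mismatches as the alignment allowed (mm9, chr9:110843213-110843287 on the minus strand, and chr16:3730946-3731020 on the plus strand).
Tdgf1: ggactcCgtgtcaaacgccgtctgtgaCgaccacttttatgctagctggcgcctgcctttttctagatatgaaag
Copy on chromosome 16: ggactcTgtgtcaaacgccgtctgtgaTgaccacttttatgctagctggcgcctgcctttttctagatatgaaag
How reads with more than 1 match were counted is not stated in the sources used here, so the counts of Lefty1, Lefty2 and Tdgf1 are uncertain to that extent. No tile of the other 7 genes matched elsewhere, and no exon of any of the 10 genes overlapped an exon of another annotated gene.

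Values are normalized counts, which are reads per gene divided by 1 size factor per library, and differences were tested with limma on log2(normalized count + 1) over the 12993 genes whose mean reached 10. Depth was 14737796 to 17597818 reads on genes, of which 9.08 to 46.6% came from Rn45s, the precursor of ribosomal RNA. The highest of these shares was in serum/-LIF replicate 1, which had the fewest reads on other genes (7878527, against 10538334 to 15999458). The serum/-LIF replicates differed at least 2-fold from each other for 27.0% of tested genes, and the serum/-LIF + Royalactin replicates for 16.3%. All 8 listed mESC markers were detected in every library, but some differed in level between the groups. Pou5f1, the gene for Oct4, had 4996 to 7453 normalized counts over the 4 libraries. Esrrb, a regulator of naive pluripotency, had 233 and 181 normalized counts in serum/-LIF against 1641 and 1390 in serum/-LIF + Royalactin, the latter pair being several times higher. The 8 mESC markers summed to 14418 and 16826 normalized counts in serum/-LIF and to 26640 and 32559 in serum/-LIF + Royalactin, sums carried largely by Pou5f1 and Dppa5a.

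**Figure D1:**
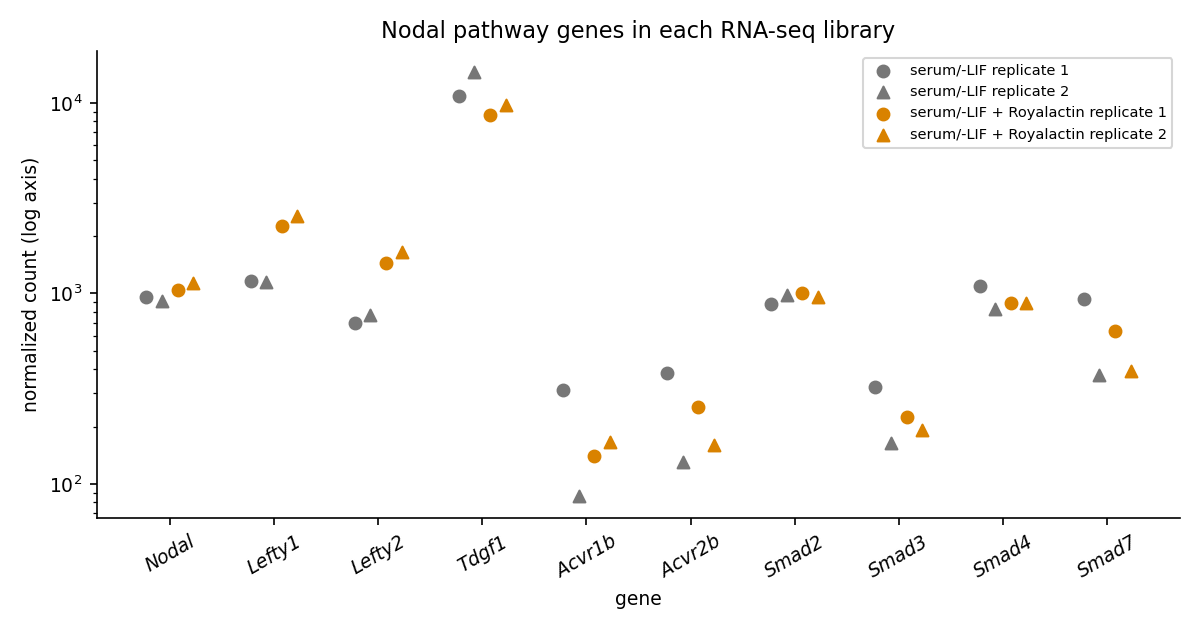
Normalized counts (log axis) of the 10 genes in each of the 4 libraries, with serum/-LIF in grey, serum/-LIF + Royalactin in orange, replicate 1 as circles and replicate 2 as triangles. The orange points lie above both grey points for Nodal, Lefty1 and Lefty2 and below them for Tdgf1, and the groups overlap for the other 6 genes.

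Lefty1 and Lefty2 were about 2-fold higher with Royalactin than without it, while their ligand Nodal differed little. No gene of the 10 passed an adjusted p-value of 0.05 in limma, a threshold that 0.493% of tested genes passed, and 2 had an unadjusted p-value under 0.05, against 9.34% of tested genes. These were Lefty1 and Lefty2, which also met the selection limits stated in the methods of the study, namely a p-value under 0.05 together with at least a 2-fold difference. Those limits, applied to unadjusted limma p-values, were met by 7.13% of tested genes in either direction and by 3.52% in the direction of Royalactin. The median log2 fold change of the 10 genes was -0.095, beside -0.0076 over all tested genes, and it was 0.38 without serum/-LIF replicate 1.

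Lefty1, which binds Nodal and its co-receptor and so blocks signalling, had 1161 and 1145 normalized counts in serum/-LIF replicates 1 and 2, and 2264 and 2559 in serum/-LIF + Royalactin replicates 1 and 2. The groups did not overlap, and the serum/-LIF libraries were close to each other. The means were 1153 ± 11.3 and 2411 ± 208 (SD, n = 2), a log2 fold change of 1.06 with a standard error of 0.29 (95% interval 0.44 to 1.68, limma, Benjamini-Hochberg adjusted p = 0.174). Lefty2, the second Lefty inhibitor, had 698 and 770.1 normalized counts in serum/-LIF, and 1451 and 1646 in serum/-LIF + Royalactin. Both Royalactin libraries again lay above both others. Its means were 734 ± 50.9 and 1549 ± 137 (SD, n = 2), a log2 fold change of 1.07 with a standard error of 0.30 (95% interval 0.43 to 1.72, limma, Benjamini-Hochberg adjusted p = 0.183).

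When any 1 library was removed, the log2 fold change lay between 0.97 and 1.15 for Lefty1 and between 0.98 and 1.17 for Lefty2. Without serum/-LIF + Royalactin replicate 2 neither gene reached the 2-fold limit. Both passed the adjusted threshold when GC and length trends were subtracted from each library, an alternative added after the data were seen (limma, Benjamini-Hochberg adjusted p = 0.0112 for Lefty1 and 0.0247 for Lefty2), where 1.90% of tested genes did. They also passed with the replicate number as a block, where 3.01% of tested genes did, and with both alternatives together, where 6.06% did. The labels do not state whether the replicate numbers pair the libraries.

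**Figure D2:**
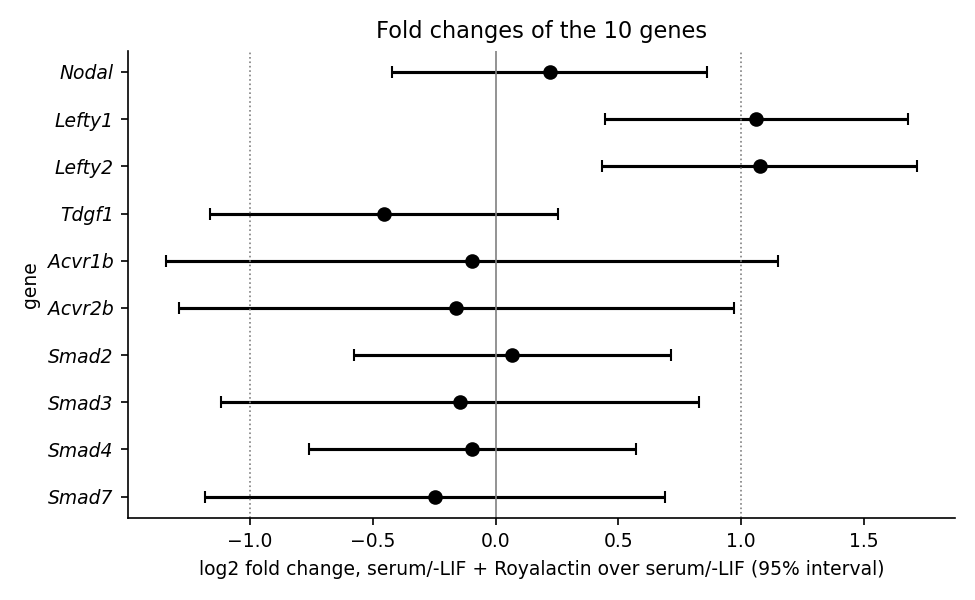
Log2 fold change of each of the 10 genes, serum/-LIF + Royalactin over serum/-LIF (n = 2 libraries a group), with the 95% interval from limma, and dotted lines at a 2-fold difference. The intervals of Lefty1 and Lefty2 lie above 0, from 0.44 and 0.43, and those of the other 8 genes include 0.

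Nodal (chr10:60880720-60888086, plus strand), the ligand that the Lefty proteins oppose, had 952 and 917 normalized counts in serum/-LIF, and 1045 and 1133 in serum/-LIF + Royalactin. The Royalactin libraries were both higher, by a small margin. The means of 935 ± 24.8 and 1089 ± 62.2 (SD, n = 2) gave a log2 fold change of 0.22 with a 95% interval of -0.42 to 0.86 (limma, Benjamini-Hochberg adjusted p = 0.870). Tdgf1, the co-receptor that Nodal needs, had 10914 and 14553 normalized counts in serum/-LIF, and 8696 and 9728 in serum/-LIF + Royalactin. Both Royalactin libraries were lower. The means of 12733 ± 2573 and 9212 ± 729.8 (SD, n = 2) gave a log2 fold change of -0.45 with a 95% interval of -1.16 to 0.25 (limma, Benjamini-Hochberg adjusted p = 0.730). In all, the groups did not overlap for 4 of the 10 genes, 3 higher and 1 lower with Royalactin. The same held for 38.6% of all tested genes, with 19.7% higher and 18.9% lower, so the share among the 10 genes was near the background.

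The ratio of Lefty to Nodal within a library does not depend on how libraries were scaled. It was examined after the values of the genes had been seen, so it is given as a description and was not tested. In reads per exon length, Lefty1 was 1.45 and 1.49 times Nodal in the serum/-LIF libraries, and 2.58 and 2.69 times Nodal in the serum/-LIF + Royalactin libraries. Lefty2 was 0.588 and 0.674 times Nodal in serum/-LIF, and 1.11 and 1.17 times Nodal in serum/-LIF + Royalactin. For each inhibitor the ratio with Royalactin was about 1.8 times that without it (1.79 for Lefty1 and 1.81 for Lefty2). Within the pair, Lefty1 made up 71.2 and 68.8% of the Lefty reads per exon length in serum/-LIF, and 69.9 and 69.8% in serum/-LIF + Royalactin. The balance between the inhibitors thus moved by less than the spread between the serum/-LIF libraries, although shared reads may even out a difference between them. Tdgf1 was 12.5 and 17.3 times Nodal per exon length in serum/-LIF, and 9.06 and 9.34 times Nodal in serum/-LIF + Royalactin.

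**Figure D3:**
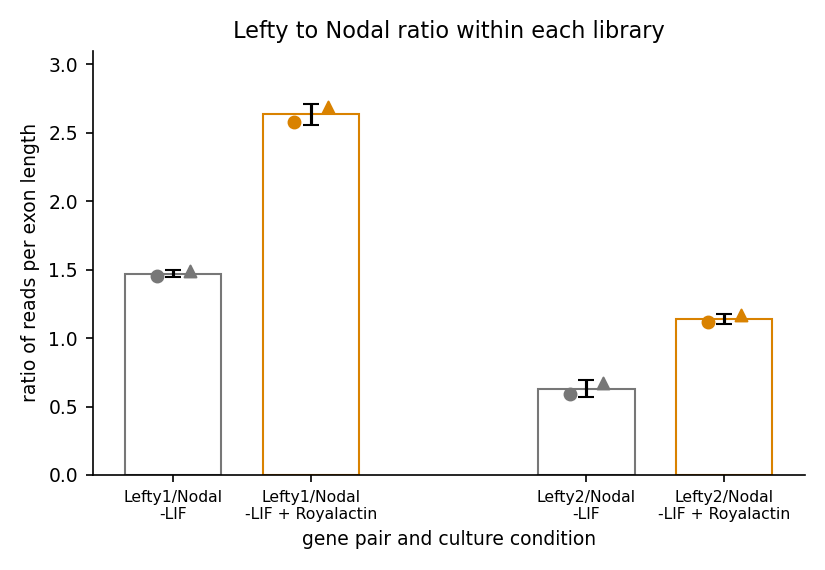
Ratio of Lefty1 and of Lefty2 to Nodal in reads per exon length, with 1 point per library (circle for replicate 1, triangle for replicate 2), bars at the mean of 2 libraries and error bars of 1 SD. The Royalactin libraries lie at 2.58 and 2.69 for Lefty1 and at 1.11 and 1.17 for Lefty2, above the serum/-LIF libraries in both cases.

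The receptors had few reads and differed most between the serum/-LIF replicates. Acvr1b (chr15:101004556-101043032, plus strand), the type I receptor, had 312 and 85.9 normalized counts in serum/-LIF, and 141 and 167 in serum/-LIF + Royalactin. Serum/-LIF replicate 1 was the highest library and replicate 2 the lowest, so the groups overlapped. The log2 fold change was -0.10 with a 95% interval of -1.34 to 1.15 (limma, Benjamini-Hochberg adjusted p = 0.975). It was 0.83 without serum/-LIF replicate 1 and -1.02 without serum/-LIF replicate 2. Acvr2b (chr9:119311562-119342619, plus strand), the type II receptor, was also highest in serum/-LIF replicate 1 and lowest in replicate 2, with 384 and 130.4 normalized counts in serum/-LIF, and 252 and 159 in serum/-LIF + Royalactin. The Royalactin values lay between the serum/-LIF values. Its log2 fold change was -0.16 with a 95% interval of -1.29 to 0.97 (limma, Benjamini-Hochberg adjusted p = 0.953), and 0.62 without serum/-LIF replicate 1.

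Of the receptor-regulated SMADs, Smad2 (chr18:76401234-76465385, plus strand) was steady, with 885 and 985 normalized counts in serum/-LIF, and 1005 and 953 in serum/-LIF + Royalactin. The groups overlapped, and the log2 fold change was 0.067 with a 95% interval of -0.58 to 0.71 (limma, Benjamini-Hochberg adjusted p = 0.965). Smad3 (chr9:63494574-63605801, minus strand), which unlike the main form of SMAD2 binds DNA directly, had 322 and 164 normalized counts in serum/-LIF, and 224 and 192 in serum/-LIF + Royalactin. The Royalactin values lay between the serum/-LIF values, and the log2 fold change was -0.15 with a 95% interval of -1.12 to 0.83 (limma, Benjamini-Hochberg adjusted p = 0.952). Per exon length, Smad2 made up 81.1 and 90.4% of the sum of Smad2 and Smad3 in serum/-LIF, and 87.5 and 88.6% in serum/-LIF + Royalactin. Smad2 was thus the larger share in every library, and the groups overlapped.

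Smad4 (chr18:73798663-73863434, minus strand), the partner that SMAD2 and SMAD3 share with the SMADs of the BMP branch, had 1095 and 825 normalized counts in serum/-LIF, and 889 and 891 in serum/-LIF + Royalactin. The groups overlapped, with a log2 fold change of -0.09 and a 95% interval of -0.76 to 0.57 (limma, Benjamini-Hochberg adjusted p = 0.953). Smad7 (chr18:75527183-75555589, plus strand), the inhibitory SMAD, had 937 and 373 normalized counts in serum/-LIF, and 637 and 390.3 in serum/-LIF + Royalactin. In both groups replicate 1 was the higher, and the groups overlapped. The log2 fold change was -0.25 with a 95% interval of -1.18 to 0.69 (limma, Benjamini-Hochberg adjusted p = 0.904), and 0.42 without serum/-LIF replicate 1. Unlike the Lefty genes, Smad7, also a target of the pathway, was therefore not higher in both Royalactin libraries.

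Acvr1b, Acvr2b, Smad3 and Smad7 shared a pattern among the replicates, being higher in serum/-LIF replicate 1 than in replicate 2 by 1.85, 1.55, 0.97 and 1.33 on the log2 scale. The corresponding differences were 0.020 for Lefty1, -0.14 for Lefty2 and 0.054 for Nodal. Across 12279 tested genes with annotated exons, this replicate difference was larger for genes rich in GC, with a Spearman correlation of 0.333, and between the serum/-LIF + Royalactin replicates the correlation was -0.178. Genes are not independent replicates, and each of these correlations compares 1 pair of libraries. The median difference ran from -0.38 in the lowest of 10 equal bins of GC content to 0.63 in the highest. The exons of Acvr1b, Acvr2b, Smad3 and Smad7 had GC contents of 53.4, 62.1, 52.9 and 56.6%, but those of Lefty1 and Nodal, at 59.0 and 55.9%, were as rich. The part of GC content in the values of single genes was not tested.

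**Figure D4:**
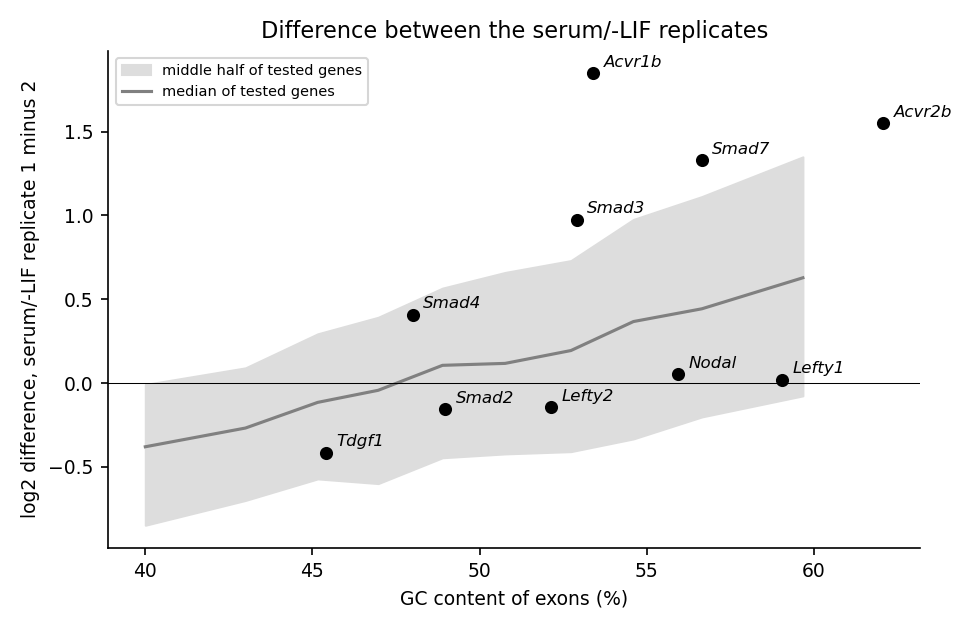
Log2 difference between serum/-LIF replicates 1 and 2 against the GC content of exons, with the 10 genes as points, the median of tested genes in each of 10 bins of GC content as a line, and the interquartile range of those genes shaded. Acvr1b, Smad3 and Smad7 lie at 0.97 or above, above the shaded range, and Nodal, Lefty1 and Lefty2 lie within it. Acvr2b, at 1.55 and a GC content of 62.1%, lies beyond the right end of the shaded range.

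Levels were compared between genes as RPKM, which scales reads to exon length and to the total reads of the library, with Rn45s left out. In serum/-LIF, Tdgf1 was by far the highest at 585 ± 66.3 (SD, n = 2), followed by Lefty1 at 58.5 ± 5.83, Nodal at 39.9 ± 4.63 and Lefty2 at 25.0 ± 0.513. Smad2 at 23.4 ± 0.333 and Smad4 at 23.3 ± 6.67 came next and overlapped each other, and Smad4 also overlapped Lefty2. Below them were Acvr2b at 13.5 ± 10.3, Smad7 at 13.3 ± 9.05, Acvr1b at 5.61 ± 4.83 and Smad3 at 3.99 ± 2.16, each overlapping its neighbours. In serum/-LIF + Royalactin, the level of Tdgf1 was 442 ± 23.1, that of Lefty1 127 ± 7.53, that of Lefty2 54.8 ± 3.39 and that of Nodal 48.1 ± 1.45. Lefty2 was thus above Nodal in both Royalactin libraries and below it in both serum/-LIF libraries. Smad2 and Smad4 followed at 25.6 ± 1.64 and 22.2 ± 0.561, without overlap. The lowest were Acvr2b at 10.9 ± 3.78 and Smad7 at 10.6 ± 3.85, which overlapped each other, then Acvr1b at 4.33 ± 0.397 and Smad3 at 3.48 ± 0.475, which did not.

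Of 50 other genes of the pathway, all were in the table and 41 passed the filter on low values. None passed the adjusted threshold in limma, 3 had an unadjusted p-value under 0.05 with a higher value in Royalactin, and 2 with a lower one, where 9.34% of all tested genes had such a p-value (619 higher and 595 lower). The lists were chosen with earlier results of these data known. Of the 41 tested genes, 21 had log2 fold changes above 0 and 20 below, with a median of 0.035. The low-value filter keeps genes that are high in either group, so these counts describe the genes that passed it.

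Among 10 other ligands, 5 passed the filter and 3 of these had log2 fold changes above 0, with a median of 0.49. Inhbb, which encodes the beta B subunit of activins, was the largest difference. It had 0 and 1 reads in serum/-LIF replicates 1 and 2, and 39 and 57 reads in serum/-LIF + Royalactin replicates 1 and 2. After scaling this was a ratio of 67.2 with a 95% counting interval of 11.8 to 2683 (exact binomial), which covers counting error only and rests on 1 serum/-LIF read (limma, Benjamini-Hochberg adjusted p = 0.389). The fitted log2 fold change of Inhbb depended on the pseudocount, being 4.82 as fitted, 6.87 with a pseudocount of 0.1 and 3.01 with a pseudocount of 5. Tgfb1, a TGF-beta ligand, had the lowest fitted value of the list, -2.34 on the log2 scale, with 46 and 38 reads in serum/-LIF, and 1 and 70 reads in serum/-LIF + Royalactin. Its groups overlapped, and the low value came from Royalactin replicate 1 (limma, Benjamini-Hochberg adjusted p = 0.655). Gdf1, Inhba and Mstn had 0 reads in every library. Inha (9 and 0 reads in serum/-LIF) and Tgfb3 (5 and 5) did not pass the filter either, and had 0 reads in both Royalactin libraries. Over all genes with a value above 0, the median of the ligands was -0.48.

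Of 9 other receptors and co-receptors, 8 passed the filter, 6 with log2 fold changes below 0 and 2 above, with a median of -0.44. Cfc1 (Cryptic), the relative of Tdgf1, had 14 and 44 reads in serum/-LIF, and 22 and 0 in serum/-LIF + Royalactin, so the groups overlapped (log2 fold change -2.66, limma, Benjamini-Hochberg adjusted p = 0.680). Eng, a TGF-beta co-receptor of endothelium, was the highest at 0.48 (adjusted p = 0.829 in the same limma fit). Of 8 secreted inhibitors and convertases, 7 passed the filter, 3 above 0 and 4 below, with a median of -0.56. Pcsk6, a protease that cleaves the Nodal precursor, had 171 and 89.0 normalized counts in serum/-LIF, and 187 and 251 in serum/-LIF + Royalactin. Its log2 fold change was 0.81, and both Royalactin libraries were above both others (limma, Benjamini-Hochberg adjusted p = 0.666). Fstl3, which binds activins, was the lowest of this list at -1.38, with 32 and 0 reads in serum/-LIF and 0 and 8 with Royalactin (limma, Benjamini-Hochberg adjusted p = 0.916). Cer1, another secreted inhibitor of Nodal, had 0 reads in every library.

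All 14 SMAD partners and regulators passed the filter, 10 above 0 and 4 below, with a median of 0.13. Usp9x, a deubiquitinase that acts on SMAD4, had 10521 and 10693 normalized counts in serum/-LIF, and 19789 and 16871 in serum/-LIF + Royalactin. Its log2 fold change was 0.78 (limma, Benjamini-Hochberg adjusted p = 0.476), and the groups did not overlap. Foxh1, the nuclear partner of SMAD2 and SMAD3, was the lowest at -0.47, with 594 and 552 normalized counts in serum/-LIF, and 354 and 479 in serum/-LIF + Royalactin (limma, Benjamini-Hochberg adjusted p = 0.731).

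Of 13 listed targets of activin, Nodal or TGF-beta, 4 of which also stand in other lists, 10 passed the filter, 5 above 0 and 5 below, with a median of -0.026. Pmepa1, which encodes a membrane protein that holds back receptor-regulated SMADs, had 114 and 194 normalized counts in serum/-LIF, and 72.4 and 41.3 in serum/-LIF + Royalactin (log2 fold change -1.42, limma, Benjamini-Hochberg adjusted p = 0.468). Gsc, a target in the anterior mesendoderm that was named after its values were seen, did not pass the filter. No read fell on it in either serum/-LIF library (0 and 0), whereas the Royalactin libraries had 12 and 29, at least 3.99-fold higher than a floor of 3 reads per library. Pmepa1 was thus lower in both Royalactin libraries, and Gsc was read in those libraries only.

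**Figure D5:**
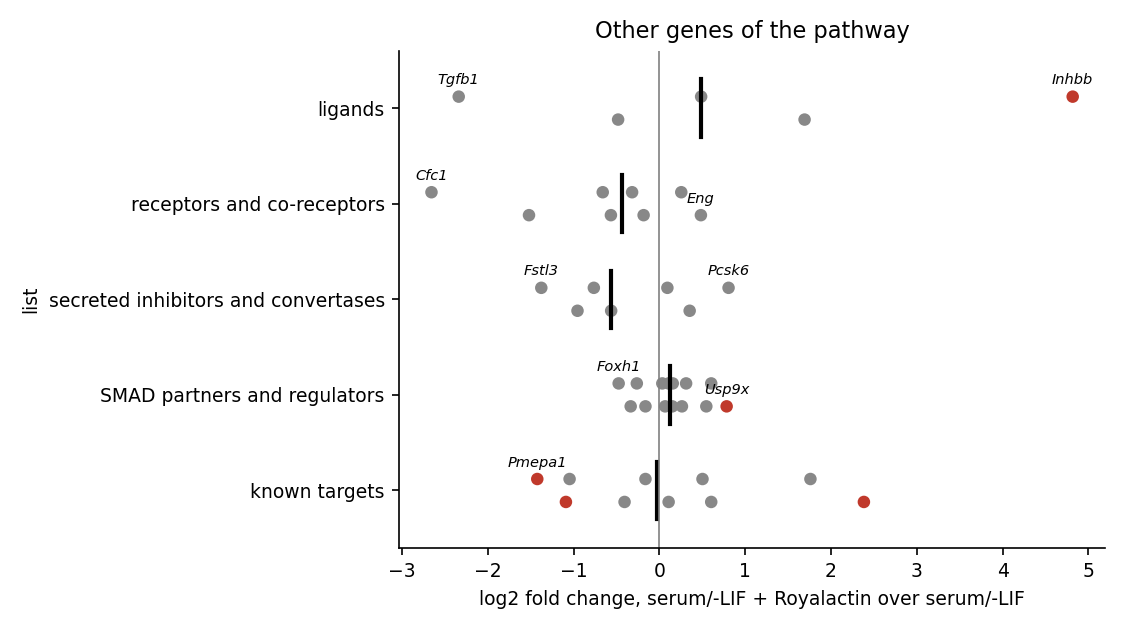
Log2 fold change, serum/-LIF + Royalactin over serum/-LIF, of the tested genes of 5 lists, with 1 point per gene, red where the unadjusted limma p-value was under 0.05, black bars at the list medians a grey line at the median of all tested genes, and names at the genes described in the text. No gene passed the adjusted threshold, and Inhbb at 4.82 and Cfc1 at -2.66 are the extremes.

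Likeness of profile was measured as the Euclidean distance between log2 values centred on the mean of the 4 libraries, over 12993 genes. With 4 libraries many genes come close by arithmetic alone, so the distances are descriptive. The nearest to Lefty1 were Pla2g10 (0.0644), St3gal6 (0.0801) and Lefty2 (0.115), and the nearest to Lefty2 were Agtrap (0.0156), Dnmt3l (0.0280) and Mpdu1 (0.0878), with Lefty1 in place 5. Nodal lay nearest to Pih1d1 (0.0269), Ttc5 (0.0270) and Trap1 (0.0270), and its distances to Lefty1 and Lefty2 were 0.843 and 0.868.

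Markers of other cell types were read beside these values, since fewer cells of a type and less RNA per cell cannot be told apart in bulk RNA. The mESC markers had log2 fold changes above 0 for 8 of 8 genes, where 6414 of 12993 tested genes did. Their median was 1.27, beside 1.06 and 1.07 for Lefty1 and Lefty2, and 4 of the 8 passed the adjusted threshold in limma. The groups overlapped for Pou5f1 (4996 and 5407 against 5140 and 7453 normalized counts) and for Utf1 (860 and 474 against 735 and 633). The other lists had few tested genes, and their sums were carried by single genes. Primitive endoderm markers (7 genes) summed to 295 to 384 normalized counts in serum/-LIF and 219 to 336 in serum/-LIF + Royalactin, mostly from Dab2. Unlike the sum, 3 of the 4 tested genes had log2 fold changes above 0, with a median of 1.41. For Sox7 (0 and 41.4 against 26.2 and 8.26) and Pdgfra (52.2 and 0 against 42.2 and 32.4) the groups overlapped. The fitted rise of Sox7 and of Pdgfra each rests on 1 serum/-LIF library at 0. Gata4, the other tested gene above 0, was higher in both Royalactin libraries (28.1 and 8.28 against 49.3 and 44.7 normalized counts). Dab2 was lower in both (284 and 245 against 188 and 126), so the 4 tested genes had no common direction. Gata6 was at 0 in 3 libraries, both of serum/-LIF and replicate 2 of serum/-LIF + Royalactin. Primitive streak and mesoderm markers (6 genes), several of them Nodal targets, summed to 124 to 197 and 115 to 162, with 1 of 3 tested genes above 0 and a median of -0.41. Neural progenitor markers (5 genes) summed to 1247 to 1606 and 548 to 581, with Neurog2 at 0 in every library. That difference was in Nes, which fell from 1490 and 1099 to 334 and 326 (limma, Benjamini-Hochberg adjusted p = 0.0166). However, 2 of the 3 tested genes lay above 0, with a median of 0.68. Pax6 was higher in both Royalactin libraries (93.6 and 79.7 against 172 and 171). For Sox1 the groups overlapped (21.4 and 68.3 against 75.4 and 50.9). Trophoblast markers (5 genes) summed to 939 to 1001 and 319 to 612, with Elf5 at 0. That difference was in Krt8, a keratin, which fell from 883 and 897 to 104 and 297 (limma, Benjamini-Hochberg adjusted p = 0.0400), while Tfap2c, the other tested gene, was higher, with 37.4 and 104 against 214 and 310.4. Fibroblast markers (8 genes) summed to 94.2 to 112 and 37.2 to 55.3, with Pdgfrb and Postn at 0 and both tested genes below 0. Of the tested genes, Dcn had 37.4 and 31.1 against 0 and 0 normalized counts. For Thy1 the groups overlapped (41.5 and 33.1 against 45.3 and 29.6). The part of a changed cell makeup in the Lefty values was not tested.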

How the data were processed

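RNA-seq of 4 libraries was used (ribosomal RNA depleted, single reads of 75 bases). The authors used Tophat for alignment to mm9, allowing 2 mismatches, and HTSeq-count for the reads of each gene. The signal that the authors deposited is these counts divided by 1 DESeq size factor per library. Annotation and strand setting are not given in the sources used here. Every deposited value is a whole multiple of 1 step per library (within 0.01 of a read), which gives the read numbers. The step of 1 library lies too near 1 for an automatic test, so no count test was run.

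Samples were grouped by their labels. Genes whose normalized counts averaged 10 or more were tested on log2(normalized count + 1), which understates changes of low genes, with limma 3.58.1 in R 4.3.3 (eBayes with trend, two-sided, Benjamini-Hochberg adjustment). The steps were tested on simulated data. The members, lists and alternatives were chosen with earlier results of these data known. Named were the 10 members, the 3 nearest profiles for Nodal, Lefty1 and Lefty2, and genes of each list. From a list these were genes past the adjusted threshold, otherwise the largest difference in each direction among tested genes. The targets are an exception, since their largest rise is not reported here and Gsc, which did not pass the filter, was described. Inhbb, Usp9x and Pmepa1 had an unadjusted p under 0.05, and other target genes that did are not reported here. Exon lengths, GC content, positions and sequences come from the mm9 genome with GENCODE M1, for 94.5% of tested genes. Exon tiles were compared with the assembled chromosomes through 25-base seeds, with at most 200 places examined per seed, and tiles across exon junctions were not covered. Alternatives were pseudocounts of 0.1 and 5, other filters and scalings, no trend, a replicate block, each library left out, exact tile matches, and, added after the data were seen, a GC and length correction (lowess, span 0.3).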

Additional observations from a re-analysis of the deposited data

How the results depend on the processing

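The number of the 10 genes past the adjusted threshold in limma, 0 as reported, was 2 (Lefty1 and Lefty2) with the replicate number as a block, 2 with the GC and length correction added after the data were seen, and 2 with both. It was 0 under the other alternatives, each with 2 of the 10 at an unadjusted p-value under 0.05 (1 without serum/-LIF + Royalactin replicate 2). The labels share replicate numbers but do not state whether these pair the libraries. Deviations of same-numbered replicates correlated at 0.0851 across genes, which cannot settle a pairing, since each group gives only 1 replicate difference. Replicate 1 had the higher share of Rn45s in serum/-LIF (46.6 against 21.6%) and in serum/-LIF + Royalactin (38.4 against 9.08%). Because the labels do not state a pairing, the block is given as an alternative only. With the block the adjusted p was 0.00977 for Lefty1 and 0.0158 for Lefty2, and it changed no call of the other 8 genes. Over the alternatives that kept all libraries, the adjusted p of Lefty1 ranged from 4.05e-06 to 0.490 and that of Lefty2 from 0.000178 to 0.490, with log2 fold changes of 1.06 to 1.15 and 1.06 to 1.13. No gene of the 10 changed sign under these alternatives.

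Over all genes, 64 passed the adjusted threshold, against 99 with genes averaging 50 or more, 34 with every gene above 0 in some library, 32 at a pseudocount of 0.1, 391 with the replicate block, 247 with the GC and length correction and 788 with both. It was 0 in limma without the trend, with 1135 genes at an unadjusted p under 0.05. Each fit with 1 library left out also gave 0 genes, with 428 to 2496 at an unadjusted p under 0.05. These fits have 1 residual degree of freedom and assume that the lone library varies like the other group. Fits with the replicate block keep every library but also have 1 residual degree of freedom. For none of these shifts was the cause tested.

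With each library left out, the 2-fold rule selected 427 to 1925 genes (927 with all) and 0 to 2 of the 10, the 0 being without serum/-LIF + Royalactin replicate 2. The median of the 10 genes lay between -0.27 and 0.38, the latter without serum/-LIF replicate 1. The median was -0.77 to -0.20 for receptors, -0.48 to -0.024 for secreted inhibitors (-0.039 without serum/-LIF replicate 1 and -0.024 without serum/-LIF + Royalactin replicate 1), -0.098 to 0.22 for SMAD partners (-0.098 without serum/-LIF replicate 2), 0.25 to 0.73 for ligands and -0.11 to -0.011 for targets. At a mean of at least 50 it was -0.18 for receptors and -0.23 for secreted inhibitors, and over all genes with a value above 0 it was -0.48 for ligands. The fitted log2 fold change ranged from -1.02 to 0.83 for Acvr1b, -0.93 to 0.62 for Acvr2b, -0.0097 to 0.14 for Smad2, -0.63 to 0.34 for Smad3, -0.30 to 0.11 for Smad4 and -0.91 to 0.42 for Smad7, changing sign without serum/-LIF replicate 1 in each case. Without serum/-LIF + Royalactin replicate 1 it was 0.024 for Acvr1b, and without replicate 2 of that group 0.17 for Acvr2b and 0.11 for Smad7. With exact matches only, the tiles shared with another place were 13.3% for Lefty1, 9.63% for Lefty2 and 13.3% for Tdgf1.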
